A study of Homo sapiens with 35 samples.

Results

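MESP1, PDGFRA, MSX1, MSX2, HAND1 and KDR, 6 of the 16103 genes in the bulk table, are known as genes of early mesoderm, though not all are confined to it. They were chosen because earlier results of these data showed early mesoderm genes moving for a short time under Activin A and in mesoderm medium, so their values in those arms are given as a description with no test. RNA was sequenced from H1, an established human embryonic stem cell line, on its way to definitive endoderm. At 6 h and 24 h unsorted cells had received Activin A with CHIR99021 (AA+CHIR), BRD or JNJ with CHIR99021 (BRD+CHIR, JNJ+CHIR), CHIR99021 alone (CHIR) or BRD alone (BRD), and at 6 h also no agent (None). At 72 h cells sorted as definitive endoderm had gone through AA+CHIR-AA-AA, BRD+LoAA+CHIR-BRD+LoAA-BRD+LoAA, BRD+CHIR-BRD-BRD or JNJ+CHIR-JNJ-JNJ, written below as AA, BRD+LoAA, BRD and JNJ at 72 h. Each of these 15 groups had 2 libraries, and a 24 h pair without agent was not analysed here. In 3 single-cell libraries, 1 per condition, cells had gone through AA+CHIR-AA to 36 h (primitive streak), through the same agents to 72 h (Endo), or through a commercial mesoderm induction medium to 72 h (Meso). Activin A, a TGF-beta family ligand that stands in for Nodal, was used at 100 ng/ml in the standard protocol, and CHIR99021, which inhibits GSK3 and so switches Wnt signalling on, at 3 µM on day 1. All arms but the mesoderm medium shared a base medium with little serum. BRD and JNJ are known here by code name only, with no dose in the labels, and the labels do not say what LoAA stands for. The single-cell labels name a flow sort before loading but not its gate.

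In the gastrulating embryo, cells that pass through the primitive streak under Nodal, Wnt and BMP signals become mesoderm or definitive endoderm. MESP1 is a basic helix-loop-helix (bHLH) factor that opens the cardiovascular branch of mesoderm, and HAND1, a second bHLH factor, works in lateral and extraembryonic mesoderm. MSX1 and MSX2 are homeobox factors that respond to BMP signalling. PDGFRA and KDR are receptor tyrosine kinases for PDGF and VEGF ligands, used together to sort mesoderm progenitors, and KDR is also known to be made by undifferentiated human pluripotent cells.

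On GRCh38, GENCODE release 29 places MESP1 at chr15:89748661-89751310 on the minus strand, 9.28 kb from its paralog MESP2. MSX1 lies at chr4:4859666-4863936 and PDGFRA at chr4:54229097-54298247, both on the plus strand, and KDR at chr4:55078259-55125595 on the minus strand, 780 kb beyond PDGFRA. MSX2 lies at chr5:174724533-174730893 on the plus strand and HAND1 at chr5:154474972-154478264 on the minus strand. All 6 are protein coding. The gene AC058822.1 overlaps PDGFRA on the same strand and is counted as its own row, so reads may be split between them. Its level was 12.7 and 3.14 counts per M counts (CPM) in AA+CHIR at 24 h and 5.60 to 11.1 CPM in the BRD and JNJ libraries at 72 h. In the CHIR, BRD+CHIR and JNJ+CHIR libraries it was at 0 to 2.62 CPM at 6 h and 0 to 2.77 CPM at 24 h. An antisense gene, AC111194.2, overlaps KDR, and the strand setting of the counting is not given in the sources used here.

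The bases just before the start of 4 members are shown because these genes gave different patterns: MSX1 peaked once, MSX2 came up early and again late, HAND1 stayed near 0 and KDR was high in the CHIR groups of 24 h. They were read from RefSeq (GRCh38.p14), 5′ to 3′ on the gene's strand, with bases inside the annotated gene left out. Capitals mark CCAAT (or its reverse complement ATTGG) and CTTTGA (or TCAAAG), the core of the TCF/LEF motif through which Wnt signalling acts. The windows are chr4:4859415-4859664 (MSX1, plus strand), chr5:174724332-174724532 (MSX2, plus strand), chr5:154478265-154478477 (HAND1, minus strand) and chr4:55125596-55125845 (KDR, minus strand).
MSX1: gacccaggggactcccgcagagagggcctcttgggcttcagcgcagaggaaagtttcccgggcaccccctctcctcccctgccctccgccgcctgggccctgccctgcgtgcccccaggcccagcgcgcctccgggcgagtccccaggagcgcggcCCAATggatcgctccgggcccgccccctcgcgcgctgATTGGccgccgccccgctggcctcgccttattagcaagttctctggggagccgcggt
MSX2: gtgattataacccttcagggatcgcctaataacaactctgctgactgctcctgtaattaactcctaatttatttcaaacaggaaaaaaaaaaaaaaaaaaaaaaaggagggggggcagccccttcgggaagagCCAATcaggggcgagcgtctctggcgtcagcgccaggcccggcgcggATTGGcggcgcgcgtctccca
HAND1: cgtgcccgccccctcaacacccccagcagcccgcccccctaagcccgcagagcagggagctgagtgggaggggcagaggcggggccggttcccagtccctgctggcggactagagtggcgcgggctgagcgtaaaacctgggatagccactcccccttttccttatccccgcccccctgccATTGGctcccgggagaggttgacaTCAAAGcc
KDR: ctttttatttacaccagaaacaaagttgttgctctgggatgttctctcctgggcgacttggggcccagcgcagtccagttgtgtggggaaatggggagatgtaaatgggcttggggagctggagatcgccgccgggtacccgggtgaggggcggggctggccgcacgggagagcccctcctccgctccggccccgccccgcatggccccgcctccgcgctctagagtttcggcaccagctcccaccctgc
The 2 MSX windows each held 2 CCAAT boxes, HAND1 held 1 CCAAT box and 1 TCF/LEF core, and the KDR window held neither. Over 250 bases before each of 35116 RefSeq promoters, 32.0% held CCAAT and 11.2% held the TCF/LEF core on either strand. The T-box core AGGTGT (or ACACCT), the sequence type bound by TBXT, TBX6 and EOMES, was found in 9.57% of promoters and in none of the member windows searched. These are matches of letters only. The G+C share of the 250 bases was 74% for MSX1 and 55.6% for MSX2, against a median of 58% over all promoters. PDGFRA also had an entry and MESP1 is named only.

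Bulk libraries held 9.65 to 17.2 M (mega) counts at 6 h, 6.75 to 49.5 M at 24 h and 4.57 to 7.59 M at 72 h. Levels are CPM after TMM scaling. By their titles, 6 h libraries belong to series 33, 24 h libraries to series 38, and those of 72 h or of BRD alone to series 46, so series and time cannot be told apart for most comparisons. Whether replicates came from separate cultures is not in the labels, so p-values measure only the spread between these libraries. At 72 h SOX17, the endoderm factor, was at 385 and 398 CPM in AA cells and 219 to 257 CPM in BRD and JNJ cells, and at 0 in the CHIR libraries of 6 h and 24 h. In bulk RNA, fewer cells of a type and less RNA per cell cannot be told apart.

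Under Activin A, 5 of the 6 genes stood higher with CHIR than in CHIR alone at 24 h, and KDR stood lower. MESP1 was at 14.5 and 7.70 CPM in the AA+CHIR libraries and had 0 counts in both CHIR libraries, where 3 counts would be at most 0.107 CPM. MSX1 was at 25.9 and 17.7 CPM in AA+CHIR, against 0 and 0.178 CPM in CHIR. PDGFRA was at 74.997 and 104 CPM in AA+CHIR, against 0 and 0.178 CPM in CHIR. For all 3 genes the groups were far apart. Summed over the pair, MESP1 had 610 counts in AA+CHIR and 0 in CHIR, at least 220-fold higher. PDGFRA had 4832 counts in AA+CHIR and 5 in CHIR, a scaled ratio of 1046 (95% counting interval 448 to 3223), and MSX1 had 1193 and 5, a ratio of 258 (110 to 797). These intervals cover counting error only. The overlapping AC058822.1 was at 12.7 and 3.14 CPM in AA+CHIR and at 2.77 and 0 CPM in CHIR. The PDGFRA ratio thus holds for the PDGFRA row alone, and the split of reads was not tested.

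MSX2 was less exclusive, at 11.2 and 10.95 CPM in AA+CHIR and 0 and 2.45 CPM in CHIR. HAND1 was near the limit of detection, at 0.993 and 0.345 CPM in AA+CHIR (37 counts) with 0 counts in CHIR. KDR went the other way, at 174 and 167 CPM in AA+CHIR and 225 and 251 CPM in CHIR, a log2 difference of -0.48. Of all genes tested at 24 h, 21.8% had both AA+CHIR libraries above both CHIR libraries and 21.3% had both below. Since the members were chosen on this contrast, nothing is read from their count.

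MESP1, PDGFRA and MSX1 were higher in both AA+CHIR libraries at 24 h than in each of the 28 other bulk libraries. The highest other library was at 0.902 CPM for MESP1 (BRD+LoAA at 72 h), 27.7 CPM for PDGFRA (AA at 72 h) and 1.53 CPM for MSX1 (BRD+CHIR at 24 h). MSX2 exceeded 27 of the 28, all but 1 BRD+LoAA library at 12.0 CPM. HAND1 and KDR each exceeded 23 of them, so for these 2 genes AA+CHIR at 24 h was not the top group. The share of all genes that peak in this group was not computed. Since this group also helped choose the members, nothing is read from how many of them peak there.

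**Figure D1:**
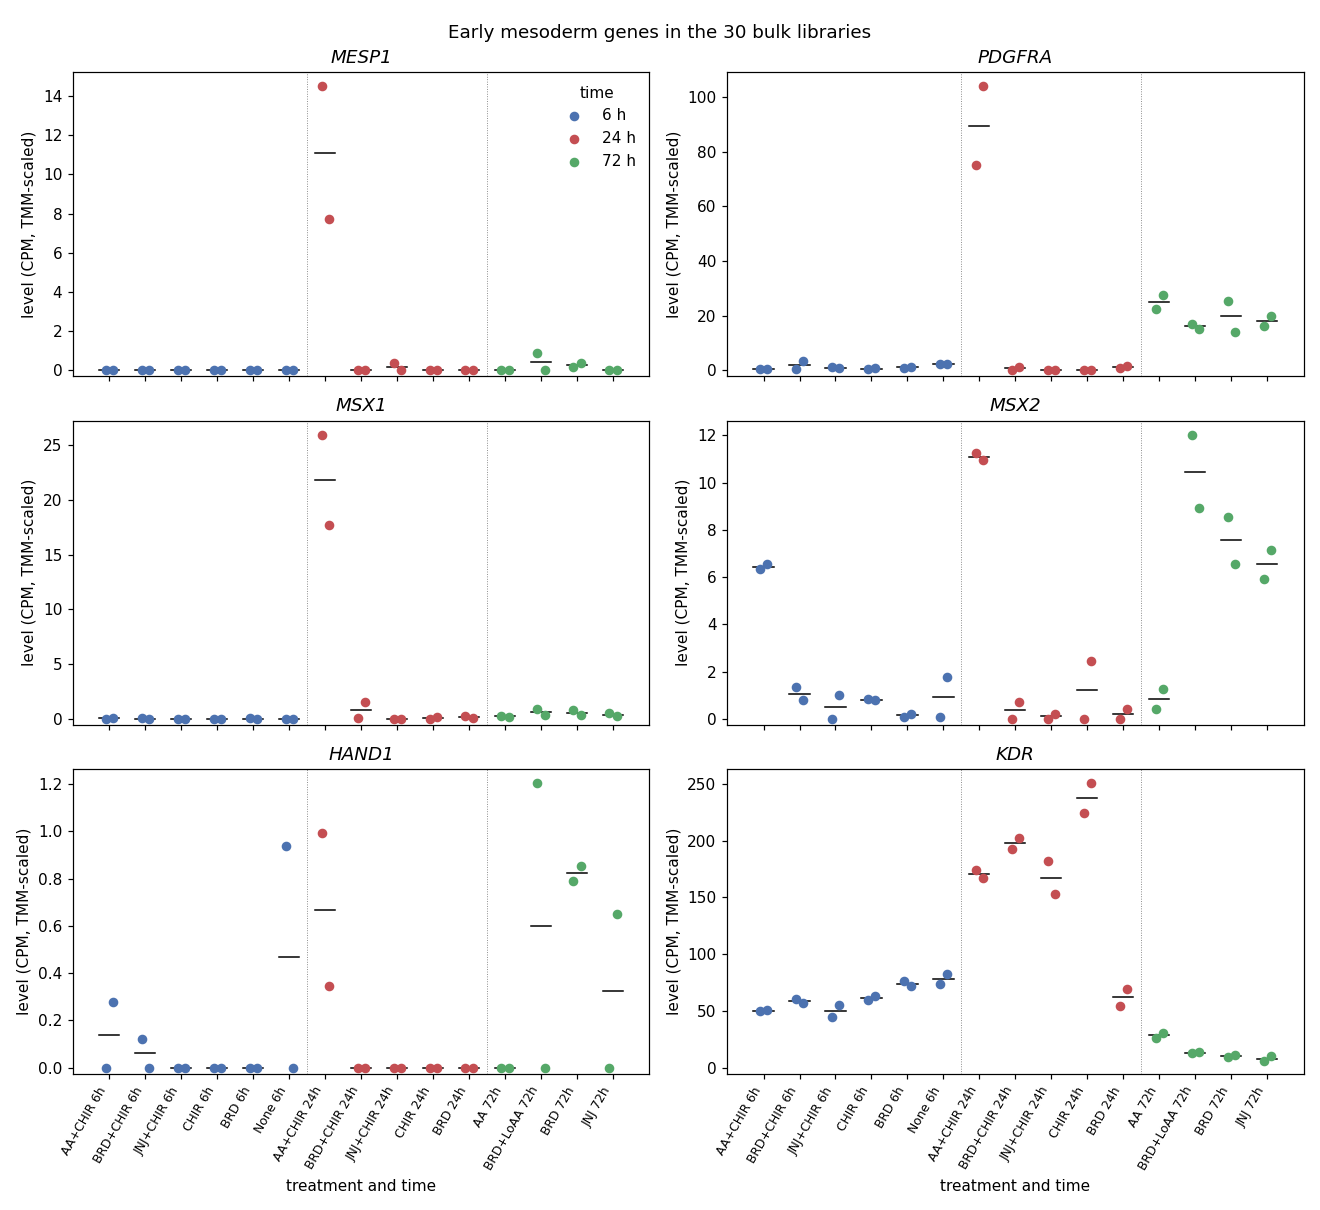
Level of each gene (CPM, linear axis, own scale per panel) in each of the 30 bulk libraries (points, coloured by time) with the group mean (line). MESP1, MSX1 and PDGFRA peak in AA+CHIR at 24 h, MSX2 is high again in the compound arms at 72 h, and KDR is highest in all 4 groups with CHIR at 24 h.

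The genes differed in when they came up and in what was left at 72 h. MSX2 was the first: at 6 h it was at 6.33 and 6.56 CPM with AA+CHIR, against 0.826 and 0.817 CPM with CHIR (133 and 20 counts, log2 difference 2.96). At that time MESP1 had 0 counts in every library, MSX1 had at most 1 count in a library, and PDGFRA was at 0.408 and 0.647 CPM in AA+CHIR and 0.330 and 0.899 CPM in CHIR. KDR at 6 h was at 50.02 and 50.5 CPM with AA+CHIR and 59.7 and 63.5 CPM with CHIR, below it in both libraries. Without overlap, 18.6% of all genes were higher and 20.5% lower in AA+CHIR at 6 h. ID1, an inhibitor of bHLH factors and a classic BMP target, was at 179 and 137 CPM in AA+CHIR and 31.5 and 26.8 CPM in CHIR at 6 h. It was picked for its role and not by the naming rule. The 13 tested genes of a BMP response list had a median log2 difference of 1.07, beside -0.005 over all genes. In BRD alone ID1 averaged 18.4 CPM at 6 h and 74.8 CPM at 24 h, while MSX2 averaged 0.159 and 0.216 CPM. ID1 averaged 8.86 CPM over BRD+CHIR and JNJ+CHIR at 24 h and 120 CPM over BRD and JNJ at 72 h. MSX2 averaged 0.240 and 7.05 CPM there. The part of BMP response in the MSX2 level was not tested.

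Along the Activin A arm, MESP1 had 0 counts at 6 h, 610 at 24 h and 0 at 72 h, and was at least 45.4-fold lower at 72 h than at 24 h. MSX1 had 1, 1193 and 3 counts at the same times. HAND1 had 3, 37 and 0 counts. MSX2 averaged 6.44 ± 0.162 CPM at 6 h, 11.1 ± 0.203 at 24 h and 0.841 ± 0.619 at 72 h (SD, n = 2 each). PDGFRA did not return to near 0 as MESP1, MSX1 and HAND1 did: it averaged 0.527 ± 0.168, 89.5 ± 20.6 and 25.01 ± 3.80 CPM (SD, n = 2 each), so it was still above 20 CPM in both libraries of sorted endoderm. KDR averaged 50.3 ± 0.359, 171 ± 4.94 and 28.6 ± 3.31 CPM (SD, n = 2 each). Without overlap, 32.9% of genes were higher and 36.2% lower at 24 h than at 6 h in this arm, and 35.2% were higher and 36.2% lower at 72 h than at 24 h. The 72 h cells were sorted and the earlier ones were not, so loss of the transcript and loss of the cells carrying it cannot be told apart.

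At 72 h the Activin A endoderm and the compound endoderm differed in the levels of MSX2 and KDR, a description with no test. MSX2 was at 0.403 and 1.28 CPM with AA, against 8.55 and 6.57 CPM with BRD and 5.93 and 7.16 CPM with JNJ. KDR was at 26.2 and 30.9 CPM with AA, against 9.81 and 11.4 CPM with BRD and 6.10 and 9.89 CPM with JNJ. PDGFRA was at 22.3 and 27.7 CPM with AA, against 25.5 and 14.1 CPM with BRD and 16.4 and 20.05 CPM with JNJ. MSX2 was thus lower in both AA libraries than in all 4 compound libraries (log2 difference -3.15), KDR was higher (1.63), and PDGFRA overlapped. Over all genes, 23.1% were higher and 22.9% lower in AA without overlap. A list of amnion-like markers, which includes BMP-responsive factors, summed to 47.3 and 58.2 CPM in AA and 179 to 215 CPM in BRD and JNJ libraries, and its part in the MSX2 level was not tested. Most of the sum in BRD and JNJ came from GATA3 alone, at 110 to 144 CPM there and at 4.03 and 7.25 CPM in AA.

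**Figure D2:**
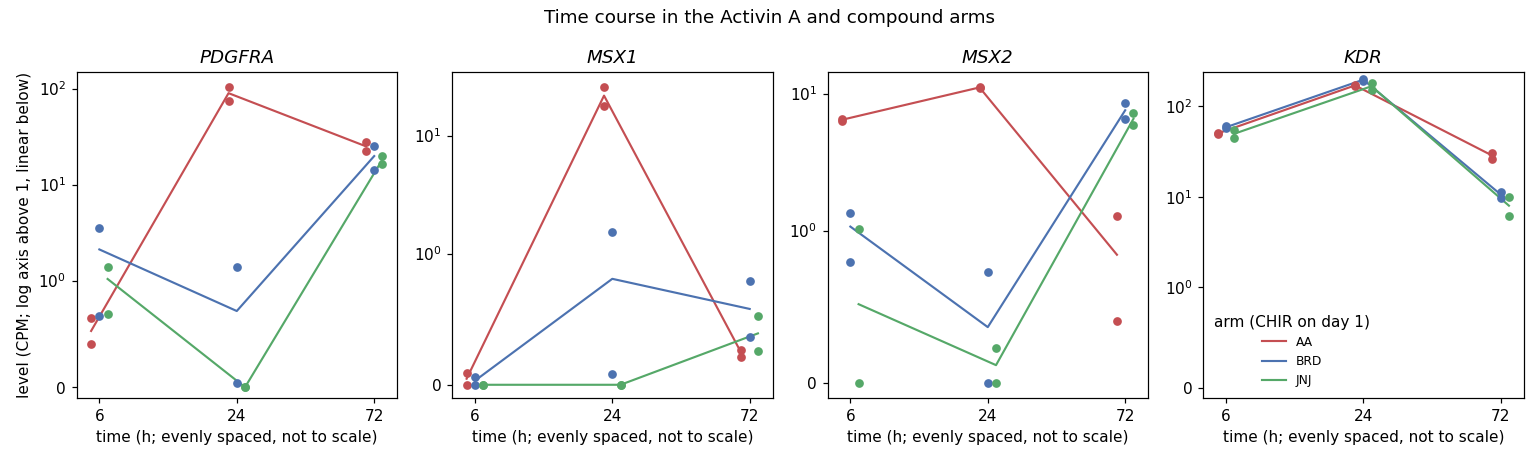
Level (CPM; logarithmic axis above 1 and linear below) of 4 members at 6 h, 24 h and 72 h in the AA, BRD and JNJ arms (points are libraries, lines join group means). PDGFRA and MSX2 come up under Activin A by 24 h and in the BRD and JNJ arms by 72 h, MSX1 is high only in the Activin A arm at 24 h among these groups, and KDR follows one shape in all 3 arms.

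Ordered by group mean, PDGFRA ran from AA+CHIR at 24 h (89.5 CPM) to the 4 groups of 72 h, AA (25.01), BRD (19.8 ± 8.03), JNJ (18.2 ± 2.58) and BRD+LoAA (16.1 ± 1.45; SD, n = 2 each). Neighbouring 72 h groups overlapped in their libraries. All 4 stood above the next group, None at 6 h (2.40 ± 0.0126 CPM). For MSX2 the order was AA+CHIR at 24 h, BRD+LoAA at 72 h (10.47 ± 2.21), BRD at 72 h (7.56 ± 1.39), JNJ at 72 h (6.55 ± 0.870) and AA+CHIR at 6 h. Neighbours in this order overlapped, except that both BRD+LoAA libraries lay above both BRD libraries. KDR ran from CHIR at 24 h (238 ± 18.4) through BRD+CHIR at 24 h (198 ± 7.01) to AA+CHIR and JNJ+CHIR at 24 h (171 ± 4.94 and 167 ± 20.3), the last 2 overlapping, and then to None at 6 h (78.3 ± 6.52).

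Over the 15 group means on a log2(CPM + 1) scale, MESP1 and MSX1 followed each other (Pearson r = 0.97), while MESP1 and PDGFRA gave 0.64 and PDGFRA and KDR gave -0.50. The points share libraries and series, and the first value rests on the AA+CHIR group at 24 h. Outside the 6, the genes most like MESP1 were LIX1 (0.93), RSPO3 (0.90), a secreted enhancer of Wnt signalling, and MAP4K2 (0.88). RSPO3 (0.93), LIX1 (0.92) and MAP4K2 (0.90) were also most like MSX1. For PDGFRA they were BHLHE22 (0.91), DKK3 (0.90) and FERMT2 (0.90). For MSX2 they were KANK2 (0.89), SMAD7 (0.88), an inhibitory SMAD, and SAMD11 (0.87), and for KDR SLTM (0.99), KIF5C (0.98) and HNRNPA3 (0.97). HAND1 stayed below 2 CPM in every group mean and was not matched.

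Comparisons that leave out the AA arm were not used to choose the genes and were tested with edgeR's quasi-likelihood test, two-sided, with Benjamini-Hochberg adjustment over all genes tested at a false discovery rate of 0.05. The BRD+CHIR and JNJ+CHIR comparisons share their CHIR libraries. The first of these comparisons asked what CHIR alone did in 6 h. KDR was at 59.7 and 63.5 CPM with CHIR and 73.7 and 82.9 CPM in None, lower in both CHIR libraries. Its log2 difference was -0.35 ± 0.12 (SE), with an edgeR adjusted p of 0.141. PDGFRA was at 0.330 and 0.899 CPM with CHIR and 2.39 and 2.41 CPM in None (-1.95 ± 0.90, edgeR adjusted p = 0.352). Of the 3 members that passed the filter on low counts at 6 h (PDGFRA, MSX2 and KDR), 0 were called, where 2.96% of all genes were, 1.69% higher and 1.28% lower. Without adjustment, 2009 genes had p under 0.05, and DESeq2 called 576 genes.

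Neither compound changed a member detectably beside CHIR at 6 h. KDR was at 60.5 and 57.2 CPM in BRD+CHIR and 44.6 and 55.1 CPM in JNJ+CHIR, against 59.7 and 63.5 CPM in CHIR. The BRD+CHIR difference was -0.06 on the log2 scale (95% interval -0.30 to 0.19) and that of JNJ+CHIR -0.30 (-0.55 to -0.05), with edgeR adjusted p-values of 1 and 0.986. PDGFRA differed by 1.76 in BRD+CHIR (-0.13 to 3.65), with 0.671 and 3.55 CPM against 0.330 and 0.899 CPM in CHIR, so the groups overlapped. With edgeR 0 of 3 members were called in either comparison, beside 0% and 0.0202% of all genes (for JNJ+CHIR 0.0134% higher and 0.00672% lower). Unadjusted p was under 0.05 for 452 and 703 genes, and DESeq2 called 1 and 9.

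At 24 h the core mesoderm genes stayed at or close to 0 in the arms that lacked Activin A. MESP1 was found in 1 library only, a JNJ+CHIR library at 0.386 CPM. PDGFRA was at 0.0410 and 1.39 CPM in BRD+CHIR, at 0 in both JNJ+CHIR libraries and at 0 and 0.178 CPM in CHIR. MSX1 was at 0.0819 and 1.53 CPM in BRD+CHIR, at 0 in both JNJ+CHIR libraries and at 0 and 0.178 CPM in CHIR. BRD+CHIR thus overlapped with CHIR for both genes, and its replicates were far apart. The sums were 20 and 5 counts for PDGFRA and 23 and 5 counts for MSX1 in BRD+CHIR and CHIR, with log2 differences of 2.73 ± 1.14 and 3.07 ± 1.27 (SE) and an edgeR adjusted p of 0.961 for each. Without the second BRD+CHIR library the differences were -0.98 and -0.076. MSX2 was at 0 and 0.730 CPM in BRD+CHIR, 0 and 0.230 CPM in JNJ+CHIR, and 0 and 2.45 CPM in CHIR, so each pair held a library with 0 counts.

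KDR was the one member well above detection in these arms. It was at 193 and 202 CPM in BRD+CHIR and 182 and 153 CPM in JNJ+CHIR, against 225 and 251 CPM in CHIR. Both compound pairs lay below the CHIR pair. The log2 differences were -0.27 (95% interval -0.55 to 0.01) and -0.51 (-0.79 to -0.22), with edgeR adjusted p-values of 0.961 and 0.254. Of the 5 members tested at 24 h, MESP1 and MSX1 passed the filter through AA+CHIR, the group in which they are high, and MESP1 had 0 counts in BRD+CHIR and CHIR. By edgeR 0 were called in either comparison, beside 0% and 0.154% of all genes (for JNJ+CHIR 0.109% higher and 0.0449% lower). Unadjusted p was under 0.05 for 738 and 1382 genes, and DESeq2 called 15 and 144, KDR among those for JNJ+CHIR. The compounds' effects on KDR at 24 h minus those at 6 h were -0.21 (-0.59 to 0.16) for BRD and -0.22 (-0.59 to 0.16) for JNJ. In these tests of the difference edgeR called 0 members, beside 0.00636% of genes each; 907 and 1440 genes had unadjusted p under 0.05 and DESeq2 called 13 and 77.

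KDR was higher where BRD was combined with CHIR. It was at 193 and 202 CPM in BRD+CHIR at 24 h, against 54.5 and 69.3 CPM in BRD alone, a log2 rise of 1.66 ± 0.14 (SE; edgeR adjusted p = 9.95e-08). The groups did not overlap, and KDR was the 1 member called of the 5 in the fit, where 35.5% of all genes were called, 19.8% higher and 15.7% lower. The 5 again include MSX1 and MESP1, and MESP1 had 0 counts in all 4 libraries compared. The BRD+CHIR libraries are of series 38 and those of BRD of series 46, so agent and series cannot be told apart. PDGFRA was at 0.0410 and 1.39 CPM in BRD+CHIR and 0.919 and 1.54 CPM in BRD alone (-1.18 ± 0.80, edgeR adjusted p = 0.288). With BRD alone, KDR was at 54.5 and 69.3 CPM at 24 h, against 76.2 and 72.0 CPM at 6 h, both of series 46, a log2 difference of -0.26 ± 0.13 (edgeR adjusted p = 0.231). In this comparison edgeR called 0 of the 6 members in the fit, beside 12.9% of genes (3.91% higher and 9.01% lower). MESP1 and HAND1 had 0 counts at both times, MSX1 had 6 and 1 counts at 24 h and 6 h, and MSX2 20 and 3. A change could thus hardly be seen in these genes. MESP1 and MSX1 passed the filter of this fit through AA+CHIR at 24 h. HAND1 passed it through the first AA+CHIR library of 24 h and the first None library of 6 h. These libraries are not compared here. For BRD alone at 24 h against 6 h, 3650 genes had unadjusted p under 0.05 and DESeq2 called 2332.

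Across the 3 arms with CHIR and without Activin A, KDR rose with time. It ranged from 153 to 251 CPM in the 6 libraries of 24 h, against 44.6 to 63.5 CPM in the 6 of 6 h, without overlap. The log2 rise was 1.82 ± 0.07 (SE; edgeR adjusted p = 1.33e-14), and in CHIR alone it was 1.97 ± 0.13. The difference in the Activin A arm, described only, was 1.78. PDGFRA moved the other way, with 25 counts at 24 h and 100 at 6 h over these arms, a scaled ratio of 0.130 (counting interval 0.0800 to 0.202; edgeR adjusted p = 0.000243), although single libraries of the 2 times overlapped. The JNJ+CHIR pair at 24 h was at 0. Without that arm the PDGFRA fall was -2.24 ± 0.75 (edgeR adjusted p = 0.0168). MSX1 was then also called higher, with 28 counts at 24 h and 1 at 6 h in overlapping groups (edgeR adjusted p = 0.0396). Of its 28 counts, 21 were in the second BRD+CHIR library of 24 h. In CHIR alone the PDGFRA difference was -2.73 ± 1.22 and not called (edgeR adjusted p = 0.0854). The overlapping AC058822.1 was at 0 to 2.62 CPM in these arms at 6 h and 0 to 2.77 CPM at 24 h. The PDGFRA fall thus holds for the PDGFRA row alone, and the split of reads was not tested. Over the 3 arms together, KDR and PDGFRA were the 2 members called of 6, where 59.6% of all genes were, 28.4% higher and 31.2% lower. MESP1 and MSX1 passed the filter through AA+CHIR at 24 h, which is not compared here. HAND1 passed it through the first library of that group and the first None library of 6 h, also not compared. At 24 h and 6 h MESP1 had 11 and 0 counts and HAND1 0 and 2. The 6 are thus not a count of members detected in these arms. Series and time coincide here too.

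In the compound arms PDGFRA and MSX2 rose late, in sorted endoderm. PDGFRA had 25.5 and 14.1 CPM with BRD and 16.4 and 20.05 CPM with JNJ at 72 h, against 0.0410 and 1.39 CPM in BRD+CHIR and 0 in both JNJ+CHIR libraries at 24 h. All 4 later libraries lay above all 4 earlier ones. The sums were 525 and 20 counts, a scaled ratio of 87.0 (counting interval 55.7 to 144; edgeR adjusted p = 7.47e-09). In the BRD arm alone the log2 rise was 5.04 ± 0.69 (edgeR adjusted p = 1.03e-05), and in the JNJ arm alone it was at least 336-fold (248 and 0 counts, edgeR adjusted p = 3.21e-07). MSX2 had 5.93 to 8.55 CPM at 72 h, against 0 to 0.730 CPM at 24 h. Its log2 rise was 5.14 ± 1.11 (SE; edgeR adjusted p = 0.000630), and the times did not overlap.

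KDR fell to 6.10 to 11.4 CPM at 72 h, against 153 to 202 CPM at 24 h, a log2 difference of -4.29 ± 0.14 (SE; edgeR adjusted p = 1.13e-14). HAND1 rested on few reads: 0.791 and 0.852 CPM with BRD and 0 and 0.651 CPM with JNJ at 72 h, against 0 counts in all 4 libraries at 24 h. Its 17 counts were at least 18.8-fold higher (edgeR adjusted p = 0.0220), a call lost without the second JNJ library of 72 h, without the first BRD+CHIR library of 24 h, in either arm alone (edgeR adjusted p = 0.0947 for BRD and 0.135 for JNJ) and by DESeq2. MSX1 had 13 counts at 72 h and 23 at 24 h and was not called (edgeR adjusted p = 0.0534), and the arms differed: the log2 difference was -0.45 ± 1.19 in the BRD arm alone (edgeR adjusted p = 0.799), while in the JNJ arm alone 5 counts stood against 0, at least 6.77-fold higher (edgeR adjusted p = 0.0238). MESP1 had 4 and 11 counts at the 2 times. In all, 4 of 6 members were called, 3 higher and 1 lower, where 53.3% of all genes were called, 26.4% higher and 26.9% lower. MESP1 and MSX1 passed the filter through AA+CHIR at 24 h. HAND1 passed it through the first AA+CHIR library of 24 h and the first BRD+LoAA library of 72 h. None of these libraries is compared here, so the 6 are not a count of members detected in these arms. The 72 h cells were sorted and of another series than those of 24 h, so time, sort and series cannot be told apart.

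BRD and JNJ gave endoderm in which no difference in a member was detected, at 1 matched time and with doses not given. Their log2 difference at 72 h, BRD minus JNJ, was 0.11 for PDGFRA (95% interval -0.49 to 0.72), 0.20 for MSX2 (-0.69 to 1.10) and 0.40 for KDR (-0.20 to 1.01), each with an edgeR adjusted p of 1. Without the first BRD library the PDGFRA difference was -0.38 and that of MSX2 -0.0071. Adding LoAA to BRD gave 17.1 and 15.1 CPM of PDGFRA, against 25.5 and 14.1 CPM in BRD. MSX2 was at 12.0 and 8.91 CPM in BRD+LoAA and 8.55 and 6.57 CPM in BRD, and KDR at 12.5 and 14.2 CPM in BRD+LoAA and 9.81 and 11.4 CPM in BRD. MSX2 and KDR lay higher in both BRD+LoAA libraries and PDGFRA overlapped, with differences of 0.49 (-0.40 to 1.37), 0.33 (-0.26 to 0.92) and -0.28 (-0.89 to 0.34) and edgeR adjusted p-values of 0.940, 0.940 and 0.956. In both comparisons edgeR called 0 of 3 members, beside 0% of all genes; 390 and 740 genes had unadjusted p under 0.05 and DESeq2 called 4 and 5.

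**Figure D3:**
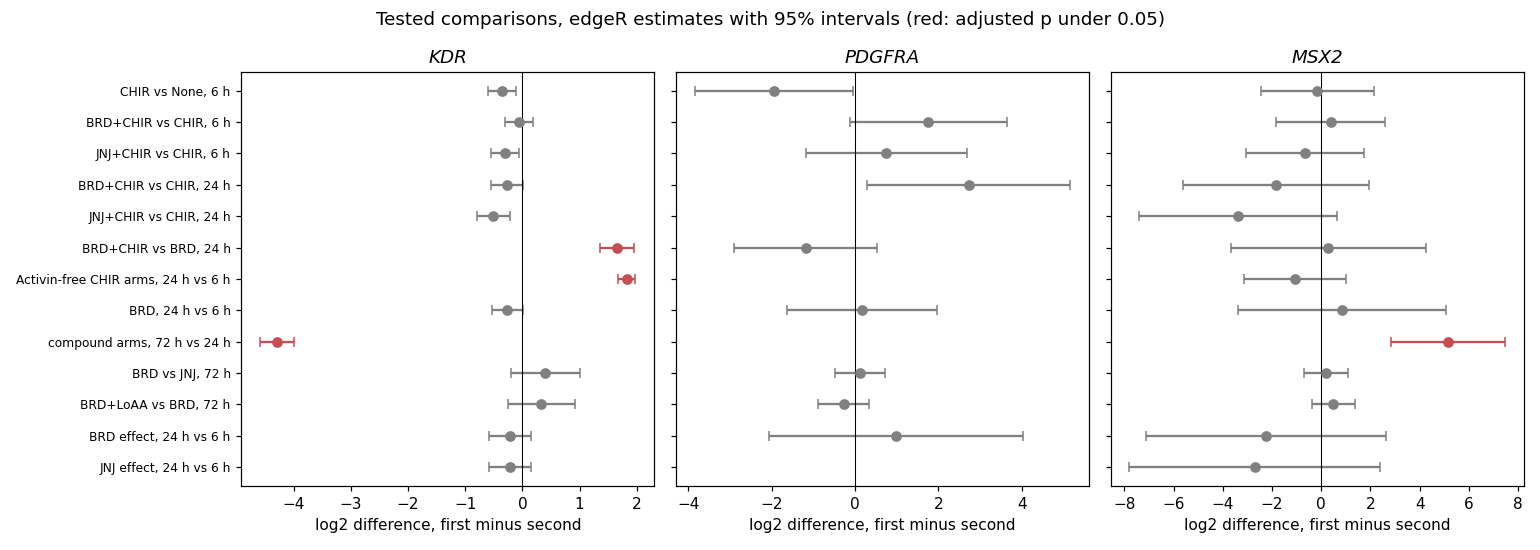
Log2 difference with its 95% interval (edgeR) of KDR, PDGFRA and MSX2 in the tested comparisons, first-named group minus second; red marks an adjusted p under 0.05, and a gene with a compared group at 0 counts has no point. KDR is higher with CHIR than with BRD alone and at 24 h than at 6 h, KDR is lower and MSX2 higher at 72 h than at 24 h in the compound arms, and the grey intervals all miss the threshold.

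The surrounding pathway genes, listed with earlier results known, were read beside the share of all genes called. Over the CHIR arms without Activin A, where 28.4% of all genes rose and 31.2% fell at 24 h against 6 h, 8 of 17 tested other early mesoderm genes rose and 2 fell, with a median log2 difference of 0.64 beside -0.06 over all genes. MIXL1, a streak homeobox factor, averaged 528 CPM at 24 h and 5.29 CPM at 6 h, a log2 rise of 6.65 ± 0.12 (SE; edgeR adjusted p = 2.45e-20). TBXT, the T-box factor of the streak, averaged 123 CPM at 24 h and 3.32 CPM at 6 h. EVX1, a posterior streak factor, averaged 20.5 CPM at 24 h and 0.0962 CPM at 6 h. Of 8 tested lateral and cardiac mesoderm genes 6 rose and 1 fell, with GATA6 at 16.3 CPM and GATA4 at 7.90 CPM at 24 h and both under 0.1 CPM at 6 h, and BMP2 at 8.32 CPM at 24 h and 2.69 CPM at 6 h. GATA6 and GATA4 are also on the list of endoderm markers. Of its 12 tested genes 10 rose and 0 fell, with a median log2 difference of 3.32. Among the PDGF and VEGF ligands and other receptors, 2 rose and 6 fell of 12. FLT1, a VEGF receptor, fell by 1.30 on the log2 scale, PDGFA, a PDGFRA ligand, by 0.99, and VEGFA, a KDR ligand, by 0.87.

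In the compound arms at 72 h against 24 h, where 26.4% of all genes rose and 26.9% fell, the early mesoderm list split into 6 higher and 6 lower of 17. MIXL1 was at 12.3 CPM at 72 h and 538 CPM at 24 h, TBXT at 10.97 and 132 CPM, and FOXC1, a paraxial and cardiac mesoderm factor, at 111 and 1.18 CPM. Lateral and cardiac genes rose in 8 of 11 and fell in 2, with GATA6 at 175 CPM at 72 h and 14.7 CPM at 24 h, BMP2 at 220 and 8.95 CPM, and TBX3 at 94.1 and 0.827 CPM. GATA6 is also an endoderm factor and BMP2 is made by endoderm. Of the 14 tested BMP response genes 13 rose and 1 fell, a median of 2.48 beside 0.03 over all genes, with GATA3 at 126 CPM at 72 h and 0 at 24 h, ID4 at 124 and 5.85 CPM, and BMP2 as given. Of 12 PDGF and VEGF genes 6 rose and 1 fell. VEGFA rose by 2.21 ± 0.12, and the VEGF co-receptors NRP2 by 2.73 ± 0.22 and NRP1 by 2.59 ± 0.41 (SE). At the same time the list of amnion-like markers summed to 179 to 215 CPM at 72 h, most of it from GATA3, and 21.8 to 41.4 CPM at 24 h. Of its 10 tested genes 5 rose and 3 fell. The 3 that fell were GABRP (19.8 to 10.4 CPM), TFAP2C (6.84 to 2.80 CPM) and CDX2 (4.17 to 0 CPM). Endothelial and blood markers summed to 8.77 to 17.4 CPM at 72 h and 31.9 to 40.5 CPM at 24 h. The part of either list in the member values was not tested.

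Beside the Activin A description at 24 h, the other early mesoderm genes had a median log2 difference of 1.42 between AA+CHIR and CHIR, with 0 over all genes. MESP2, named as the neighbouring paralog of MESP1, was at 4.04 and 3.41 CPM in AA+CHIR and had 0 counts in CHIR. TBX6, a paraxial mesoderm factor named as a stage gene, was at 28.7 and 21.1 CPM in AA+CHIR and 4.92 and 4.27 CPM in CHIR. The ligand PDGFA was at 13.6 and 13.2 CPM in AA+CHIR and 40.2 and 41.2 CPM in CHIR, the reverse of its receptor PDGFRA.

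Most of the 6 genes had a higher level in the Meso than in the Endo single-cell library. There is 1 library per condition, so the values have no replicate check and no test, and intervals cover counting error only. After filtering, 4193 cells of 36 h, 5632 of Meso and 4511 of Endo were kept, with median depths of 21152, 7873.5 and 7680 UMIs (unique molecular identifiers, 1 per captured molecule). The libraries shared 50 to 56 cell barcodes in pairs. SOX17 had 0 UMIs at 36 h and in Meso and 4131 in Endo, and TBXT was at 326 UMIs per M UMIs in Meso and 3.05 in Endo, so both 72 h labels match their markers. At 36 h the streak genes TBXT and EOMES were at 28.3 and 71.2.

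MSX1 was at 196 UMIs per M UMIs in Meso and 2.13 in Endo, a ratio of 92.2 (95% interval 73.1 to 118). MESP1 was at 27.6 in Meso and 0.444 in Endo, a ratio of 62.2 (37.6 to 111). MSX2 was at 5.19 in Meso and 0.385 in Endo (13.5, 7.73 to 25.7). HAND1 had 95 UMIs in Meso and 3 in Endo (23.7, 7.88 to 117). KDR differed less, at 10.6 in Meso and 6.16 in Endo (1.72, 1.46 to 2.03). PDGFRA was as high in Endo as in Meso within counting error, at 18.9 in Meso and 19.7 in Endo (0.962, 0.868 to 1.07). So 5 of the 6 were higher in Meso, a contrast that helped choose them, and PDGFRA did not separate the libraries. The share of all genes higher in Meso was not computed, so nothing is read from this count.

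At 36 h under Activin A, all but KDR were low. MESP1 was at 1.90 UMIs per M UMIs, 4.29 times its Endo level (2.52 to 7.86), and MSX1 at 4.11, 1.93 times its Endo level (1.49 to 2.52). PDGFRA was at 3.07, 0.156 of its Endo level (0.134 to 0.181). KDR was at 25.6, the highest of the 3 libraries and 4.15 times its Endo level (3.60 to 4.82). MSX2 and HAND1 had 15 and 9 UMIs in all 4193 cells.

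**Figure D4:**
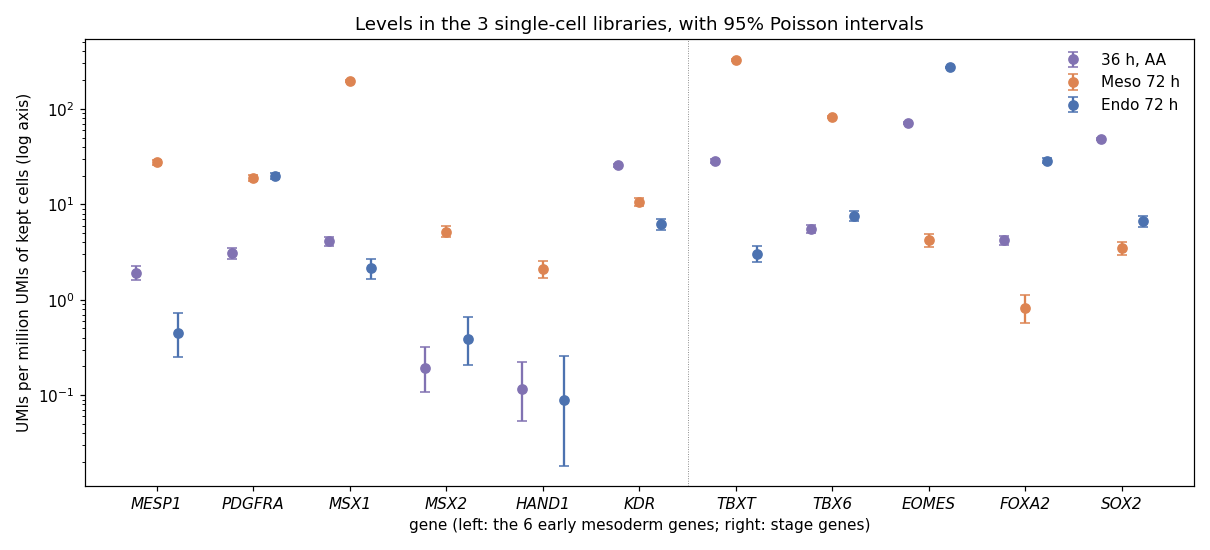
UMIs per M UMIs of kept cells (logarithmic axis, 95% Poisson intervals) in the 36 h, Meso and Endo libraries for the 6 genes and 5 stage genes. MSX1 and MESP1 lie far higher in Meso than in Endo, PDGFRA is level between them, and KDR is highest at 36 h.

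Cells with at least 1 UMI were compared after thinning each cell to 2000 UMIs, which left 3416 cells of 36 h, 5539 of Meso and 3685 of Endo and left out 777, 93 and 826. MSX1 was then found in 31.3% of Meso cells and 0.434% of Endo cells (70.5% and 1.57% unthinned), and in 0.790% at 36 h. MESP1 was found in 5.27% of Meso cells (16.6% unthinned), in 0.263% at 36 h and in 0 of the 3685 Endo cells, which allows a share of up to 0.0814% with a UMI at this depth. Unthinned, 0.288% of Endo cells held a MESP1 UMI. PDGFRA was found in 3.76% of Meso cells (12.9% unthinned) and 3.53% of Endo cells (11.1% unthinned). KDR was found in 4.48% of cells at 36 h (30.7% unthinned), 2.00% in Meso and 1.00% in Endo. MSX2 was found in 0.957% and HAND1 in 0.343% of Meso cells.

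Endo cells with 2 or more SOX17 UMIs, 1064 cells with a median of 10950 UMIs, served as cells of another type. Unthinned, MESP1 was in 0.188% of them, MSX1 in 1.79%, MSX2 in 0.0940% and HAND1 in 0. In all Endo cells the shares were 0.288%, 1.57%, 0.266% and 0.0665%. The depths of these cells differ. With each cell at 4000 UMIs, MSX1 was in 0.477% of Endo cells with a SOX17 UMI (95% interval 0.155 to 1.11) and 0.786% of those without (0.430 to 1.32). The shares of the other 3 genes rest on 15 UMIs or fewer. PDGFRA was in 13.2% of these SOX17 cells and in 9.71% of the 2564 Endo cells with no SOX17 UMI, whose median was 3157 UMIs. KDR was in 5.73% and 3.35% of the same cells. At 4000 UMIs, PDGFRA was in 6.20% of Endo cells with a SOX17 UMI (4.82 to 7.84) and 7.36% of those without (6.19 to 8.67). At 2000 UMIs, 248 Meso cells (4.48%) held UMIs of 2 or more members, against 3 Endo cells (0.0814%).

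At 36 h the few MESP1, PDGFRA and MSX1 molecules fell in overlapping cells. For this, cells were thinned to 10000 UMIs, a depth chosen after the depths were seen, which kept 2693 cells and left out 1500. PDGFRA was found in 18.0% of the 50 cells with a MESP1 UMI (95% interval 8.58 to 31.4) and in 2.27% of the 2643 cells without. MSX1 was found in 10 of the 50 cells with MESP1 (10.0 to 33.7) and 2.91% without. MSX1 was also found in 17.4% of the 69 cells with PDGFRA and in 2.86% of the others.

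The same cells carried more of the streak and paraxial mesoderm factors. TBX6 was in 36.0% of cells with MESP1 and 3.90% without, TBXT in 52.0% and 22.1%, and EOMES, a T-box factor of streak and endoderm, in 78.0% and 41.6%. SOX2, a pluripotency factor, ran the other way, in 10.0% of cells with MESP1 and 36.4% without. TBX6 was in 24.6% of cells with PDGFRA and 3.96% without, and in 27.6% of the 87 cells with MSX1 and 3.72% without. KDR did not follow this split: among the 591 cells with KDR, MESP1 was in 1.52%, PDGFRA in 2.20%, MSX1 in 3.05% and TBX6 in 3.55%. Doublets were not removed, and their part in these shares was not tested.

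**Figure D5:**
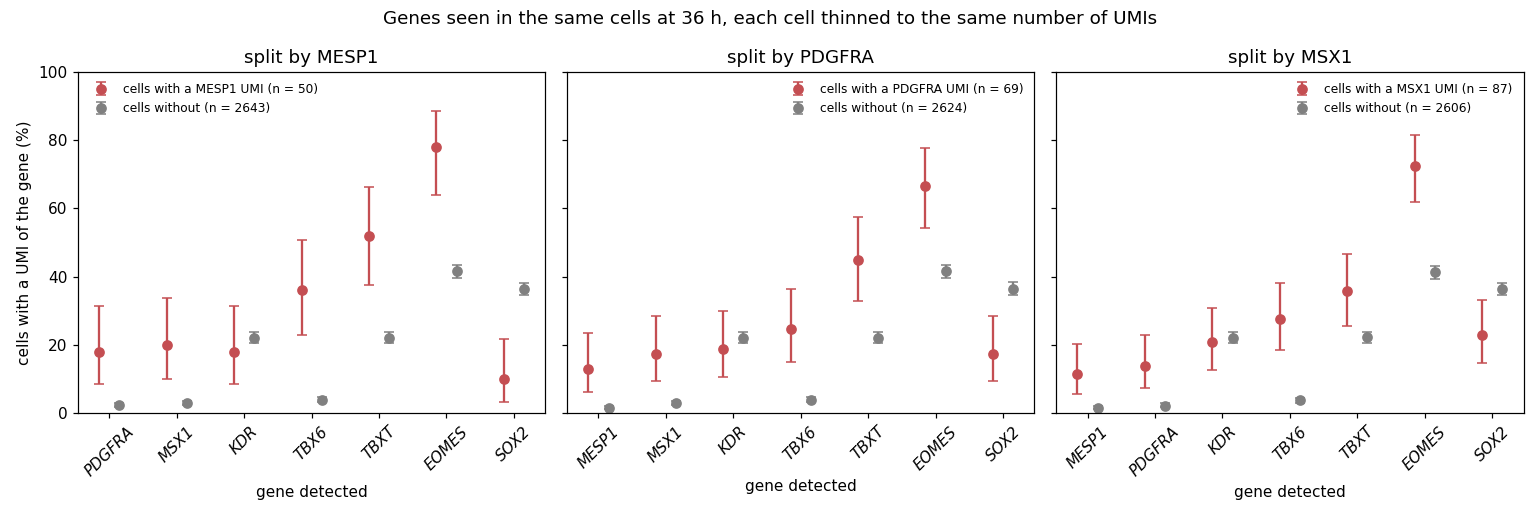
Share of 36 h cells with a UMI of each gene (%, exact 95% binomial intervals), in cells with (red) and without (grey) a UMI of MESP1, PDGFRA or MSX1, all at 10000 UMIs per cell. PDGFRA, MSX1 and TBX6 are found more often beside MESP1 and SOX2 less often, while KDR is similar.

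In Meso, at 4000 UMIs per cell (5349 cells, 283 left out), the shares differed less between cells with and without a member. MSX1 was in 51.4% of the 381 cells with PDGFRA and 51.3% of those without. MESP1 was in 14.6% of the 219 cells with KDR and 9.28% of the rest. TBX6 was in 43.8% of cells with PDGFRA and 26.2% without, and in 36.4% of the 508 cells with MESP1 and 26.5% without. HAND1 lay in few cells: among the 42 that held it TBXT was in 47.6%, against 68.5% of the others. MSX1 was in 67.0% of the 97 cells with MSX2 and in 51.0% without. In Endo at the same depth (2829 cells, 1682 left out), SOX17 was in 33.2% of the 196 cells with PDGFRA and 37.3% of those without, EOMES in 73.0% and 62.4%, and MSX1 in 1.02% and 0.646%. In Meso, endothelial and blood markers summed to 20.4 and amnion-like markers to 84.1 UMIs per M UMIs, of which CDX2 gave 77.9, against 5.95 and 17.6 in Endo, and their part in the member levels was not tested.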

How the data were processed

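RNA of H1 cells was measured in 32 bulk samples (30 with values here) and 3 single-cell libraries. Per the labels, a stranded kit for total RNA was used in bulk, with single-end reads, and single cells were prepared by droplet 3′ chemistry after a sort. The authors deposited bulk values in the unit of estimated counts per gene, not all of them whole; the submitters' processing notes name edgeR 3.34.0, limma 3.48.1 and Salmon 1.4.0, with no role for any. The deposited single-cell values are counts of UMIs, which Cell Ranger 3.0.2 wrote per the file headers, and the notes list the build GRCh38 and Seurat 4.0.2. An aggregated matrix of these cells was left aside. No column was left without a sample.

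Samples were grouped by treatment and time from the labels. They were rounded to whole numbers. The test was edgeR 4.0.16 under R 4.3.3 (filterByExpr, TMM, quasi-likelihood F-test, two-sided, false discovery rate 0.05 over all genes tested), in 1 fit per time point, 1 over 6 h and 24 h and 1 over 24 h and 72 h, with 6, 5, 4, 11 and 9 residual degrees of freedom and 14874, 15586, 13889, 15717 and 15562 genes. The 6 h, 24 h and 72 h fits had common biological coefficients of variation of 0.140, 0.406 and 0.165. In 13 comparisons without the arm labelled AA the members were tested. Where a compared group had 0 counts no fitted fold of a member is given, except among the changes with processing below. A bound on the fold sets the summed group at 3 counts, and other ratios carry exact 95% counting intervals.

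Tested on simulated data, the fits of CHIR against None at 6 h (14585 genes), BRD+CHIR against CHIR at 24 h (15354 genes) and BRD against JNJ at 72 h (13633 genes) recovered 80%, 51% and 64% of 2-fold and 99%, 87% and 95% of 4-fold changes, with 7.73%, 6.76% and 8.09% of calls false. The 6 h and 24 h fit recovered 61% of 2-fold and 94% of 4-fold changes, and the 24 h and 72 h fit 55% and 86%. Of their calls 6.63% and 3.42% were false. Changes were planted only in genes averaging at least 5 CPM, so these shares do not cover members at lower levels.

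The members and lists were chosen with earlier results of these data known. Named were all 6 members, up to 3 called genes of smallest p per list and comparison described, the 3 non-member genes with the largest Pearson r of log2(CPM + 1) over 15 group means (at least 5 CPM in 1 group, for members reaching 2 CPM), and 6 stage genes in single cells. Other genes named for their role are marked as such. Sequences are RefSeq's (GRCh38.p14); 5 of 6 members matched.

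Cells were kept from 500 detected genes upward, if mitochondrial UMIs made up no more than 10% (Python 3.11.15, scipy 1.17.1). Doublets were neither called nor removed. Shares carry exact binomial (Clopper-Pearson) and levels exact Poisson 95% intervals. Alternatives were DESeq2 1.42.0, another scaling (RLE), no filter on low counts, a replicate block, 1 fit over all libraries, leaving out each library, and a thinning depth of 1000 UMIs. Arms taken alone were added after seeing the data. Replicate numbers did not pair the libraries: the deviations of same-numbered libraries correlated at -0.06 to 0.03 at 6 h, -0.03 to 0.03 at 24 h and -0.17 to 0.19 at 72 h.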

Additional observations from a re-analysis of the deposited data

How the results depend on the processing

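The number of members called stayed the same under RLE scaling, without the filter on low counts, with 1 fit over all libraries (5 and not 4 for the compound arms at 72 h against 24 h) and with the replicate block, which changed no member's call; the replicate numbers do not pair the libraries. With DESeq2, 1 member (KDR, -0.50) was called for JNJ+CHIR against CHIR at 24 h, where edgeR called 0. Leaving out 1 library gave 1 to 2 members for BRD+CHIR against BRD at 24 h, with 2 without either BRD+CHIR library (MSX1 at 3.44 without the first, PDGFRA at -4.90 without the second). The same step gave 2 to 3 for the CHIR arms without Activin A at 24 h against 6 h, where MSX2 was also called lower without the second CHIR library of 24 h (-3.55), 3 to 5 for the compound arms at 72 h against 24 h, and 0 to 0 for the other 10 comparisons. A lone library is then assumed to vary like the other groups. In the CHIR arm alone, added after seeing the data, 1 member was called at 24 h against 6 h, and without the JNJ+CHIR arm 3 were, MSX1 among them (fitted at 4.04). For the compound arms at 72 h, MSX1 was called higher by DESeq2 (2.72), in 1 fit over all libraries (2.56), without the second BRD+CHIR library of 24 h (4.21) and in the JNJ arm alone, but was lower in the BRD arm alone (-0.45); these fitted values depend on groups at 0. Counts over all genes moved more: JNJ+CHIR against CHIR at 24 h had 24 calls with edgeR, 144 with DESeq2, 286 in 1 fit over all libraries and 11 to 31 without 1 library, BRD+CHIR against CHIR at 24 h had 0, 15, 26 and 1 to 4, CHIR against None 441, 576, 186 and 208 to 268, and BRD alone 2030 calls at 24 h against 6 h and 1065 to 1506 without 1 library. For JNJ+CHIR against CHIR at 6 h the calls were 3, 9, 2 and 0 to 5, for BRD+CHIR 0, 1, 0 and 0 to 4, for BRD against JNJ 0, 4, 1 and 0 to 3 (4 without the filter), for BRD+LoAA against BRD 0, 5, 0 and 0 to 2, and for the changes of the BRD and JNJ effects with time 1, 13, 1 and 0 to 6 and 1, 77, 9 and 0 to 138 (2 for JNJ with the block). Across all settings, 535 fitted member values kept direction and side of the threshold, 9 newly passed it, 6 lost it, and 40 changed sign or came to 0, none of these past the threshold; values with 3 counts or fewer in both groups were left out. With the replicate block MSX2 was at 0.16 for CHIR against None and PDGFRA at -0.036 for BRD alone at 24 h against 6 h. MESP1 was at -4.80 in the JNJ arm alone at 72 h against 24 h. At 24 h against 6 h MSX2 was at 0.59 in the CHIR arm alone, and MESP1 at 0 there and without the JNJ+CHIR arm. The rest changed on leaving out 1 library, for genes of few counts or small differences, over these ranges of log2 differences. For MSX2 they were -0.034 to 0.70 (BRD+CHIR against CHIR, 6 h), -6.28 to 0.34 (JNJ+CHIR against CHIR, 6 h), -1.09 to 3.11 (CHIR against None), -8.06 to 6.14 and -7.99 to 4.60 (BRD+CHIR and JNJ+CHIR against CHIR, 24 h), -5.96 to 6.03 (BRD+CHIR against BRD), -7.89 to 5.19 and -6.78 to 4.74 (change of the BRD and JNJ effects), -3.55 to 1.02 (CHIR arms, 24 h against 6 h), -4.48 to 1.57 (BRD, 24 h against 6 h) and -0.0071 to 0.39 (BRD against JNJ). For PDGFRA they were -0.98 to 6.92 and -5.21 to 0 (BRD+CHIR and JNJ+CHIR against CHIR, 24 h), -4.90 to 0.028 (BRD+CHIR against BRD), -2.70 to 4.69 (change of the BRD effect), -0.38 to 0.39 (BRD, 24 h against 6 h), -0.38 to 0.49 (BRD against JNJ) and -0.66 to 0.22 (BRD+LoAA against BRD). For MSX1 they were -0.076 to 7.29 and -5.21 to 0 (BRD+CHIR and JNJ+CHIR against CHIR, 24 h), -0.72 to 3.44 (BRD+CHIR against BRD), and -2.61 to 4.29 and -4.70 to 0 (change of the BRD and JNJ effects). For MESP1 they were 0 to 6.34 (JNJ+CHIR against CHIR, 24 h), 0 to 5.80 (change of the JNJ effect) and -0.26 to 2.60 (compound arms, 72 h against 24 h). The cause of these changes was not tested. Throughout this section, a fitted value that rests on a group at 0 counts, as all those of MESP1 do, is not a measured fold. Thinning to 1000 UMIs lowered the shares of Meso cells to 17.2% for MSX1 and 2.76% for MESP1. Depth limits MESP1, MSX1 and HAND1: a count of 0 allows up to 0.0649 to 0.639 CPM, depending on which of the 30 libraries it is in.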
